A study of Caenorhabditis elegans with 36 samples.

Results

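W03G1.8, F49F1.7 and F55B11.6 are 3 genes of Caenorhabditis elegans that carried a high RNA polymerase II signal in hrde-1 mutants in every phase of a temperature shift. They were selected on that signal from the 20167 genes of the table, so their Pol II levels in hrde-1 and the Pol II contrast with wild type are given as a description, with no test. Each gene has 1 entry in the table. All are on the minus strand of chromosome IV in the WS190 genome release. W03G1.8 lies at IV:527379-528583, is 1205 bp long and is annotated in RefSeq as a non-coding RNA. F49F1.7 lies at IV:4123521-4125750 and is a protein-coding gene of 2230 bp. F55B11.6 lies at IV:14416331-14417167 and is a protein-coding gene of 837 bp.

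HRDE-1 is an Argonaute protein of the germline nucleus. It binds small interfering RNAs that are copied from target transcripts, and with other nuclear RNAi factors it lowers transcription at the matching loci and directs trimethylation of histone H3 at lysine 9 (H3K9me3), a mark of heterochromatin. The silent state can pass from parents to progeny for generations. Without HRDE-1, targets of the pathway can lose the mark and be transcribed.

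The study followed the wild-type strain N2 (WT) and the loss-of-function mutant hrde-1(tm1200) in 2 biological repeats. The culture temperature was raised from 15 °C to 23 °C and later lowered again. The libraries used here are of 1 repeat, with each strain kept as 1 lineage. Chromatin immunoprecipitation sequencing (ChIP-seq) was made from whole young adults of 6 generations per strain, namely 1 generation at 15 °C ahead of the heat (15C-G3), 3 generations at 23 °C (23C-G2, G4 and G6, here the 23C generations) and 2 generations back at 15 °C (p15C-G1 and G2, here the p15C generations). The number after G counts generations at that temperature, and each list of values keeps this order. Each of the 12 cultures gave a library with an antibody to Pol II phosphorylated at serine 2 (the elongating form), a library with an antibody to H3K9me3, and an input library of chromatin before precipitation. WT and hrde-1 thus have 1 library per mark at 15C, 3 at 23C and 2 at p15C, all of biological repeat 2. Animals were collected more hours after release of the first larval stage at 15 °C than at 23 °C, so temperature and hours in culture cannot be told apart. Chromatin came from all tissues, and fewer cells with a signal and less signal per cell cannot be told apart. Values are reads per kilobase of gene and megaread of library (RPKM) as deposited. Groups are given as mean ± SD over generations, which are successive samples of 1 lineage and not independent cultures.

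Estimated depth, in megareads (M), ran from 3.07 to 5.66 M for Pol II, from 2.07 to 7.97 M for H3K9me3 and from 0.221 to 1.31 M for input. The hrde-1 gene had 107.3 to 188.9 Pol II RPKM in WT and 76.5 to 128.8 in the mutant, ranges that overlap, and since the value covers the whole gene it does not check the labels. Germline markers (glh-1, pgl-1, htp-3, him-3 and syp-1) were detected in every library. Their summed Pol II level at 15C was 399.9 RPKM in WT and 354.8 in hrde-1. At 23C it was 238.8 to 322.2 RPKM in WT and 204.8 to 223.1 in hrde-1, where the genotypes did not overlap. At p15C it was 298.0 to 380.9 RPKM in WT and 196.6 to 305.5 in hrde-1. None of the 5 was called by limma between genotypes in any phase (0, 1 and 1 at an unadjusted p under 0.05 at 15C, 23C and p15C). Muscle markers summed to 14.6 RPKM in the WT 15C library and 39.3 in that of hrde-1, with 0 of 3 called by limma and 2 of 3 at an unadjusted p under 0.05. Intestine markers summed to 726.7 Pol II RPKM at 15C in WT and to more, 991.9, in hrde-1. At 23C they summed to 508.8 to 961.0 in WT and 337.3 to 857.1 in hrde-1. At p15C they summed to 800.7 to 880.7 in WT and 422.4 to 561.5 in hrde-1, where the genotypes did not overlap. Of these 6 genes 0 were called by limma in either mark in any comparison, but 5 had an unadjusted p under 0.05 in H3K9me3 between genotypes at 23C (median log2 change 0.32) and 3 in Pol II between hrde-1 at 23C and 15C (median -1.06). Sperm markers summed to 9.2 Pol II RPKM at 15C in WT and 16.9 in hrde-1, and oocyte markers to 222.3 and 178.5. For both lists the genotypes overlapped at 23C and p15C. Between genotypes 0.492% to 0.825% of all genes were called higher in Pol II by limma, so counts of 0 do not set the markers apart. Whether these differences bear on the values below was not tested.

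Pol II over W03G1.8 was low in WT and high in hrde-1 at every generation. In WT it measured 3.29 RPKM at 15C-G3, 2.90, 2.50 and 3.38 at the 23C generations, and 3.79 and 3.76 at p15C. In hrde-1 it measured 104.3 RPKM at 15C-G3, 78.4, 68.5 and 53.4 at 23C, and 75.5 and 97.1 at p15C. The groups did not overlap, and the hrde-1 value was 15.8 to 31.7 times that of WT in the same generation. The means over 6 libraries were 3.27 ± 0.50 RPKM in WT and 79.5 ± 18.7 in hrde-1. Ranked among all genes of a library, W03G1.8 stood at positions 10414 to 12481 in WT and 157 to 442 in hrde-1.

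F49F1.7 had the same order of genotypes at a lower level. WT libraries gave 3.08 RPKM of Pol II at 15C-G3, 2.64, 3.59 and 3.10 at 23C, and 3.32 and 2.68 at p15C. The hrde-1 libraries gave 77.7 RPKM at 15C-G3, 57.6, 51.2 and 37.2 at 23C, and 42.2 and 48.2 at p15C. Every hrde-1 library was above every WT library, by 12.0 to 25.2 times within a generation. Like W03G1.8, it was highest at 15C-G3 and lowest at 23C-G6 in hrde-1.

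F55B11.6 had the lowest WT level of the 3 genes. The WT libraries gave 1.30 RPKM of Pol II at 15C-G3, 1.90, 1.71 and 1.30 at 23C, and 2.28 and 1.35 at p15C, each resting on 9 to 14 reads. The hrde-1 libraries gave 40.8 RPKM at 15C-G3, 29.3, 47.9 and 42.98 at 23C, and 28.2 and 41.1 at p15C, from 159 to 483 reads. Within a generation hrde-1 was 12.4 to 33.0 times WT. The lowest hrde-1 values were at 23C-G2 and p15C-G1, the first generations sampled after a change of temperature, and not at 23C-G6.

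**Figure D1:**
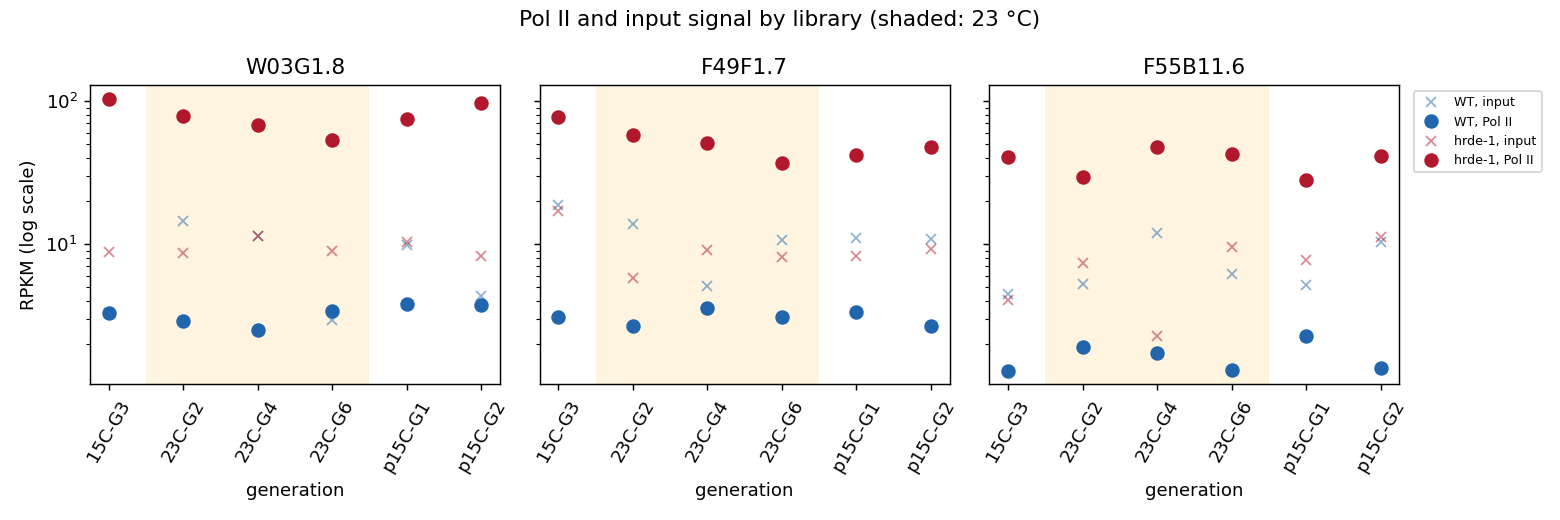
Pol II RPKM (log axis) of W03G1.8, F49F1.7 and F55B11.6 in each library by generation, WT in blue and hrde-1 in red, with input RPKM of the same cultures as crosses and the 23 °C generations shaded. The hrde-1 libraries lie between 28.2 and 104.3 RPKM and the WT libraries between 1.30 and 3.79.

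The members were chosen on this contrast, so their separation is no independent result. Over all genes tested, 0.492% were called higher in hrde-1 than in WT at 15C, 0.795% at 23C and 0.825% at p15C, where a call needed a 2-fold change and a limma p-value, adjusted by the Benjamini-Hochberg method, no higher than 0.1. In hrde-1 the order of levels was W03G1.8 (79.5 ± 18.7), F49F1.7 (52.3 ± 14.3) and F55B11.6 (38.4 ± 7.9). The first was above the second in 6 of 6 libraries, and the second above the third in 5 of 6, although neighbouring ranges overlapped. In WT, W03G1.8 (3.27 ± 0.50) and F49F1.7 (3.07 ± 0.37) did not differ beyond their spread, and F55B11.6 (1.64 ± 0.40) was below both in 6 of 6 libraries.

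The input libraries, which carry no antibody selection, gave no like difference. W03G1.8 had 7.69 ± 4.84 input RPKM in WT and 9.37 ± 1.18 in hrde-1 (n = 6 each). F49F1.7 had 11.7 ± 4.5 and 9.59 ± 3.90. F55B11.6 had 7.21 ± 3.09 and 7.02 ± 3.35. The genotypes overlapped for each gene, on 1 to 39.4 estimated reads per library. The limma test called 0 of the 3 genes (0 at an unadjusted p under 0.05), against 0.00496% of all genes. The ratio of mean Pol II to mean input was 0.425 for W03G1.8 in WT and 8.49 in hrde-1. For F49F1.7 it was 0.262 and 5.46, and for F55B11.6 it was 0.228 and 5.47.

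H3K9me3 was not part of the rule that chose the genes, but it came from the same cultures, and earlier results of these data were known. It went the other way, with every hrde-1 library below every WT library for each of the 3 genes. Whether other genes with high Pol II in hrde-1 differ as much was not tested. The mark was called lower in hrde-1 for 2 of 3 genes at 15C, where 0.982% of all genes were called lower, for 3 of 3 at 23C (0.838% of all genes) and for 2 of 3 at p15C (0.902%). F55B11.6 was the gene not called at 15C and p15C. Relative to all genes, whose median log2 change was 0.05 at 15C, 0.06 at 23C and 0.09 at p15C, the 3 genes were on the low side. The 1st percentile of all genes was -1.02, -0.87 and -0.93, and only F55B11.6 at 15C and p15C lay above it.

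W03G1.8 carried the most H3K9me3 of the 3 genes in WT and had the largest log2 change of the 3 in each phase. In WT it measured 29.8 RPKM at 15C-G3, 23.2, 24.0 and 19.4 at 23C, and 21.8 and 25.7 at p15C. In hrde-1 it measured 7.61 RPKM at 15C-G3, 5.33, 4.18 and 3.91 at 23C, and 4.65 and 5.49 at p15C. The WT value was 3.91 to 5.74 times the hrde-1 value of the same generation. On the log2(RPKM + 1) scale the change in hrde-1 was -1.84 ± 0.21 (SE) at 15C, -2.09 ± 0.12 at 23C and -2.03 ± 0.15 at p15C, with limma adjusted p of 4.07e-05, 1.41e-09 and 7.04e-08. Among all genes these were the 44th, 28th and 35th lowest changes. The gene moved from ranks 303 to 1186 by H3K9me3 in WT to ranks 11006 to 15492 in hrde-1.

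F49F1.7 had nearly as much of the mark in WT. It measured 24.1 RPKM at 15C-G3, 20.01, 21.4 and 17.4 at 23C, and 18.4 and 23.4 at p15C, below W03G1.8 in 6 of 6 WT libraries but with overlapping ranges. In hrde-1 it measured 10.5 RPKM at 15C-G3, 6.90, 3.09 and 4.76 at 23C, and 5.96 and 6.08 at p15C. The difference from WT was smallest before the shift, at -1.13 ± 0.29 on the log2 scale (limma adjusted p = 0.0784). It was -1.85 ± 0.17 at 23C (adjusted p = 6.57e-07) and -1.63 ± 0.21 at p15C (adjusted p = 6.71e-05). The 15C call rests on 1 library per genotype with the spread taken from the other phases, and it was lost under 4 of the other settings and without either p15C library of hrde-1 (adjusted p = 0.104 for each).

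F55B11.6 started from a lower level and fell less. WT libraries gave 8.48 RPKM of H3K9me3 at 15C-G3, 12.53, 10.985 and 10.93 at 23C, and 10.1 at both p15C generations, from 47 to 160 reads. The hrde-1 libraries gave 5.30 RPKM at 15C-G3, 6.06, 3.34 and 3.72 at 23C, and 5.24 and 5.18 at p15C, from 20 to 64 reads. The highest hrde-1 value, 6.06, was under the lowest WT value, 8.48. The change was -1.25 ± 0.15 at 23C (limma adjusted p = 1.70e-05), which was called, and -0.84 ± 0.18 at p15C (adjusted p = 0.0143), which passed the p threshold but not the 2-fold limit. At 15C it was -0.59 ± 0.25 (adjusted p = 0.398), with a 95% interval of -1.13 to -0.05. With input subtracted, the 23C change was -1.50 and no longer called (adjusted p = 0.536).

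**Figure D2:**
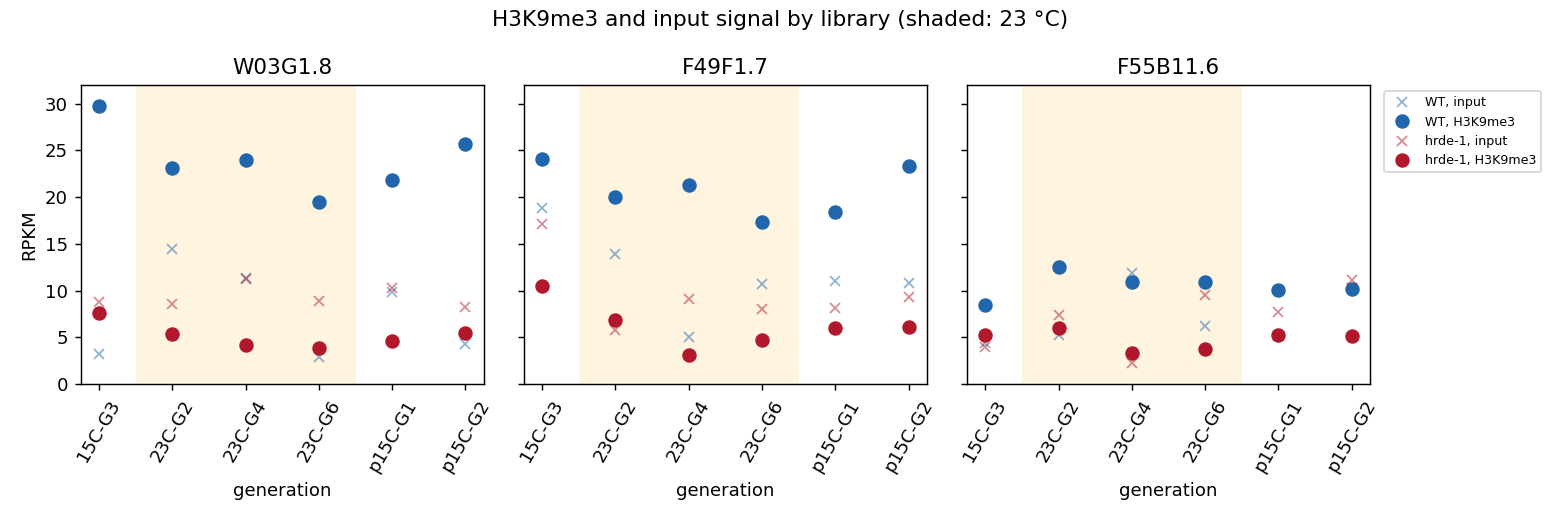
H3K9me3 RPKM (linear axis from 0) of the 3 genes in each library by generation, WT in blue and hrde-1 in red, input RPKM as crosses and 23 °C shaded. All 6 hrde-1 points lie below all 6 WT points in each panel, with the narrowest separation in F55B11.6.

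Set against input, the mean H3K9me3 of W03G1.8 was 3.118 times mean input in WT and 0.555 times in hrde-1. The ratio went from 1.77 to 0.647 for F49F1.7 and from 1.46 to 0.684 for F55B11.6. In WT the order by H3K9me3 was W03G1.8 (24.0 ± 3.5), F49F1.7 (20.8 ± 2.7) and F55B11.6 (10.5 ± 1.3), the last apart from the others in all 6 libraries. In hrde-1 the levels were 5.19 ± 1.33, 6.21 ± 2.47 and 4.81 ± 1.05, which did not differ beyond their spread.

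Temperature moved neither mark past the thresholds at these genes in WT. For Pol II, limma called 0 of 3 genes between WT at 23C and 15C and 0 of 3 between WT at 23C and p15C, with 0 at an unadjusted p under 0.05 in each. Among all genes 0.0149% and 0.368% were called. The log2 differences between 23C and 15C were -0.13 (95% interval -0.61 to 0.34) for W03G1.8, 0.00 (-0.50 to 0.50) for F49F1.7 and 0.19 (-0.45 to 0.83) for F55B11.6. A 2-fold change in RPKM + 1 lay outside each interval. At the low WT level of F55B11.6 a doubling of RPKM is a smaller change in RPKM + 1, and its interval does not exclude that doubling. For H3K9me3 in WT, 0 of 3 genes were called between 23C and 15C (1 at an unadjusted p under 0.05) and 0 of 3 between 23C and p15C (0 at an unadjusted p under 0.05), against 0.0496% and 0% of all genes. The gene with the unadjusted p was W03G1.8, at -0.41 ± 0.17 (adjusted p = 0.474), while F55B11.6 stood at 0.39 ± 0.21 (adjusted p = 0.604).

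Within hrde-1, the sizes of the differences between phases varied among the 3 genes. H3K9me3 at 23C differed from that at 15C by -1.01 ± 0.24 on the log2 scale for F49F1.7 (limma adjusted p = 0.158) and by -0.66 ± 0.17 for W03G1.8 (adjusted p = 0.195), and both differences had an unadjusted p under 0.05. Neither was called, against 0.0645% of all genes. Without hrde-1 23C-G2, F49F1.7 was called (-1.24, adjusted p = 0.0121). F55B11.6 differed by -0.26 ± 0.21 (adjusted p = 0.82). Between 23C and p15C in hrde-1, 0 of 3 genes were called (0 at an unadjusted p under 0.05) against 0.00992% of all genes, with differences of -0.30 to -0.15. The change from 23C to p15C in hrde-1 less that in WT was 0.06 ± 0.19 for W03G1.8, 0.21 ± 0.27 for F49F1.7 and 0.41 ± 0.23 for F55B11.6, with 0 of 3 called by limma (0 at an unadjusted p under 0.05) and 0% of all genes. Pol II in hrde-1, given as a description, differed between 23C and 15C by -0.65 on the log2 scale for W03G1.8, -0.69 for F49F1.7 and -0.06 for F55B11.6.

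**Figure D3:**
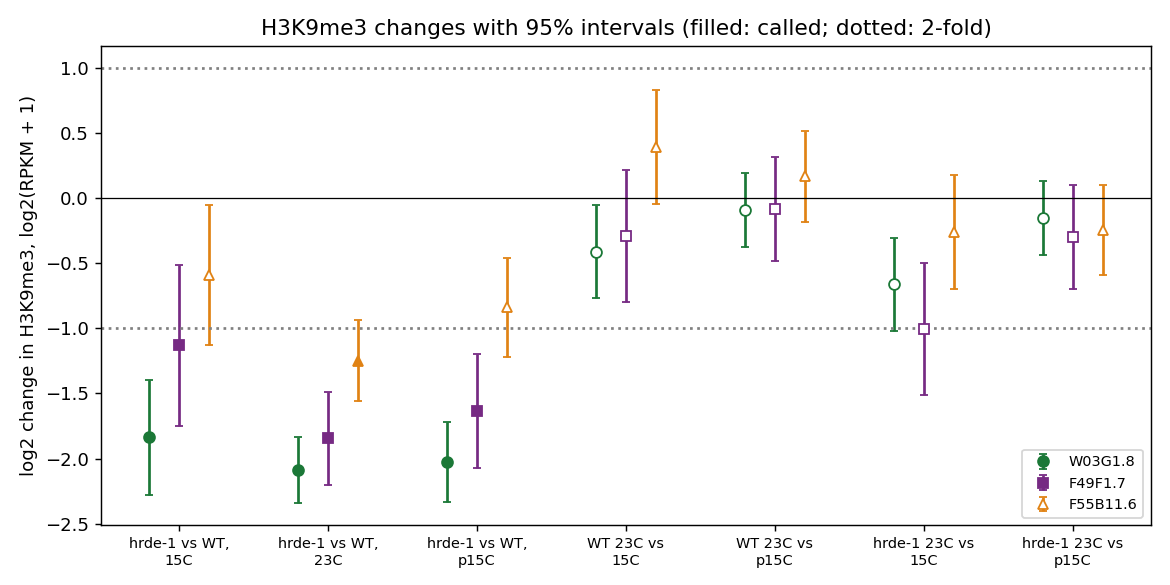
Log2 change in H3K9me3 of the 3 genes (log2(RPKM + 1) scale) with 95% intervals from limma, filled where called, for the comparison of genotypes in each phase and of phases within each genotype. The 3 comparisons of genotypes lie between -2.09 and -0.59, and all 4 comparisons of phases include open symbols only.

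Reads bear differently on the 3 genes. The estimated reads of F55B11.6 were whole numbers, within 0.05 of a read, in 36 of 36 libraries. Those of W03G1.8 were whole in 2 and those of F49F1.7 in 4, as happens when a read that aligns to several places is divided among them. Part of the signal of W03G1.8 and F49F1.7 can therefore come from similar sequence elsewhere in the genome, and it cannot be assigned to 1 copy. F55B11.6, whose reads were whole, also had less H3K9me3 in every hrde-1 library than in every WT library. That difference was called in 1 of the 3 phases, and the call was lost with input subtracted. Its Pol II direction was set by the rule that chose the genes and is no independent result.

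The 3 genes lie far apart on chromosome IV, at 3.0%, 23.6% and 82.4% of its length to the last gene. Within 10 kb they have 13 neighbours, which were taken by position, with earlier results of these data known, and tested in both marks. The values appear to count 999 bp beyond each gene length. W03G1.2 (899 bp from W03G1.8) and mul-1 (458 bp from F49F1.7), both among those called in Pol II, may therefore share reads that selected a member. For these neighbours the calls are not independent of the choice of members. Pol II was called higher in hrde-1 for 3 of 13 at 15C, 3 of 13 at 23C and 3 of 13 at p15C, against 0.492%, 0.795% and 0.825% of all genes, and lower for 0. H3K9me3 was called lower for 1, 2 and 1 of 13, against 0.982%, 0.838% and 0.902%. The called neighbours were beside W03G1.8 and F49F1.7, and 0 of the 4 neighbours of F55B11.6 were called by limma in either mark, with 1 in each mark at an unadjusted p under 0.05 at 15C and 0 at 23C and p15C. With the generation as a block, F55B11.2 was called higher in Pol II at 15C (log2 change 1.39), on 1 library per genotype. The share of all genes called higher at 15C was also larger under that setting than in the main fit, so the call does not set F55B11.2 apart. At the shares of all genes given above, a count of 0 of 4 does not set the neighbours of F55B11.6 apart either.

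The neighbour with the largest change in both marks was F49F1.8, a pseudogene of 4129 bp that lies 4.74 kb upstream of F49F1.7. WT libraries had 7.30 RPKM of Pol II at 15C-G3, 7.49, 5.80 and 6.27 at 23C, and 7.64 and 6.95 at p15C. The hrde-1 libraries had 63.1 RPKM at 15C-G3, 77.5, 68.1 and 54.7 at 23C, and 88.0 and 81.7 at p15C, above WT in every library. The log2 change was 2.95 ± 0.25 at 15C, 3.16 ± 0.14 at 23C and 3.37 ± 0.18 at p15C (limma adjusted p = 3.64e-05, 1.87e-08 and 2.80e-07). Its H3K9me3 level was 37.6 to 51.8 RPKM in WT and 11.3 to 19.9 in hrde-1, a log2 change of -1.34 ± 0.27, -1.53 ± 0.15 and -1.68 ± 0.19 in the 3 phases (adjusted p = 0.0113, 2.17e-06 and 1.39e-05). F49F1.8 thus had more H3K9me3 than F49F1.7 itself in both genotypes. The 15C call in H3K9me3 was lost after quantile normalization (adjusted p = 0.202) and with input subtracted (adjusted p = 0.75).

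On the other side of F49F1.7, 0.46 kb downstream, mul-1 (F49F1.6) rose in Pol II from 1.26 to 2.60 RPKM in WT to 4.85 to 8.01 in hrde-1. Its log2 change was 1.74 ± 0.37 at 15C, 1.23 ± 0.21 at 23C and 1.53 ± 0.26 at p15C (limma adjusted p = 0.0666, 0.0067 and 0.00756). Both the 15C and the p15C call were lost without the p15C-G1 libraries (adjusted p = 0.165 and 0.162). The 15C call was also lost without hrde-1 23C-G4, 23C-G6, p15C-G1 or p15C-G2 (adjusted p = 0.117 to 0.137), and the p15C call without the p15C-G2 library of WT (0.173) or a p15C library of hrde-1 (0.106 for G1, 0.1003 for G2). H3K9me3 over mul-1 was 12.7 to 16.7 RPKM in WT and 7.64 to 10.7 in hrde-1, under 2-fold in each phase. F49F1.3, a pseudogene 7.43 kb downstream, had lower H3K9me3 in hrde-1 at 23C (-0.77 ± 0.11, adjusted p = 0.000153, below the 2-fold limit), while its Pol II signal changed by 0.51 ± 0.30 (adjusted p = 1). With input subtracted, its H3K9me3 change at 23C was -2.675 and was called (limma adjusted p = 0.00339). That setting put the hrde-1 23C-G2 library at 0, as its input (16.6 RPKM) was above its H3K9me3 (11.5). Mean input of F49F1.3 was 10.05 RPKM in hrde-1 and 6.62 in WT, from shallow libraries.

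W03G1.2, a protein-coding gene on the opposite strand that ends 0.9 kb downstream of W03G1.8, differed from W03G1.8 in how its Pol II level lay across the shift. In hrde-1 it measured 6.90 RPKM at 15C-G3, 19.6, 22.8 and 16.2 at 23C, and 15.9 and 11.4 at p15C. In WT it measured 0.618 RPKM at 15C-G3, 3.62, 2.08 and 1.147 at 23C, and 3.07 and 1.97 at p15C. The log2 change between genotypes was 2.29 ± 0.45 at 15C, 2.70 ± 0.26 at 23C and 2.06 ± 0.32 at p15C (limma adjusted p = 0.0429, 3.61e-05 and 0.0043). In hrde-1 it was lowest at 15C-G3, where W03G1.8 was highest, but its own difference between 23C and 15C was not called (1.36 ± 0.37, adjusted p = 0.317). Its H3K9me3 fell by 1.00 on the log2 scale at 23C (adjusted p = 0.00169), just at the 2-fold limit. The Pol II call at 15C was lost without hrde-1 p15C-G1 (adjusted p = 0.113) or p15C-G2 (0.111), without both p15C-G1 libraries (0.224), with no trend (0.142) and after quantile normalization (0.255). With input subtracted the 15C change was 0.32 (adjusted p = 1.0). The p15C call was lost without WT p15C-G2 (log2 change 1.83), without hrde-1 p15C-G1 (1.84) and without both p15C-G1 libraries (2.07). It was also lost with input subtracted (2.13, limma adjusted p = 0.534), where the 23C change was 3.36 (adjusted p = 0.0297). In WT, Pol II was at most 3.62 RPKM and input at least 8.42, so subtraction set every WT library to 0. That setting left no WT value or spread in Pol II, so it does not check these calls. The H3K9me3 call at 23C was lost with input subtracted (-1.95, adjusted p = 0.318), without either the 23C-G2 or the 23C-G4 library of WT (-0.97 and -0.93), and without the 23C-G4 or the 23C-G6 library of hrde-1 (-0.86 and -0.92).

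The deposited values step as if each gene were 999 bp longer than annotated, the best of all added lengths up to 2 kb in 12 of 12 input libraries, so flanking sequence appears to be counted and W03G1.2 and mul-1, at 899 and 458 bp from a member, may share counted sequence with it. That share was not tested. Estimated reads were whole in 36 of 36 libraries for mul-1, in 23 for F49F1.8 and in 20 for W03G1.2. The neighbours beside F55B11.6, among them xdh-1, which encodes a xanthine dehydrogenase, changed in H3K9me3 by -0.15 to 0.18 at 23C and in Pol II by 0.25 to 0.35.

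**Figure D4:**
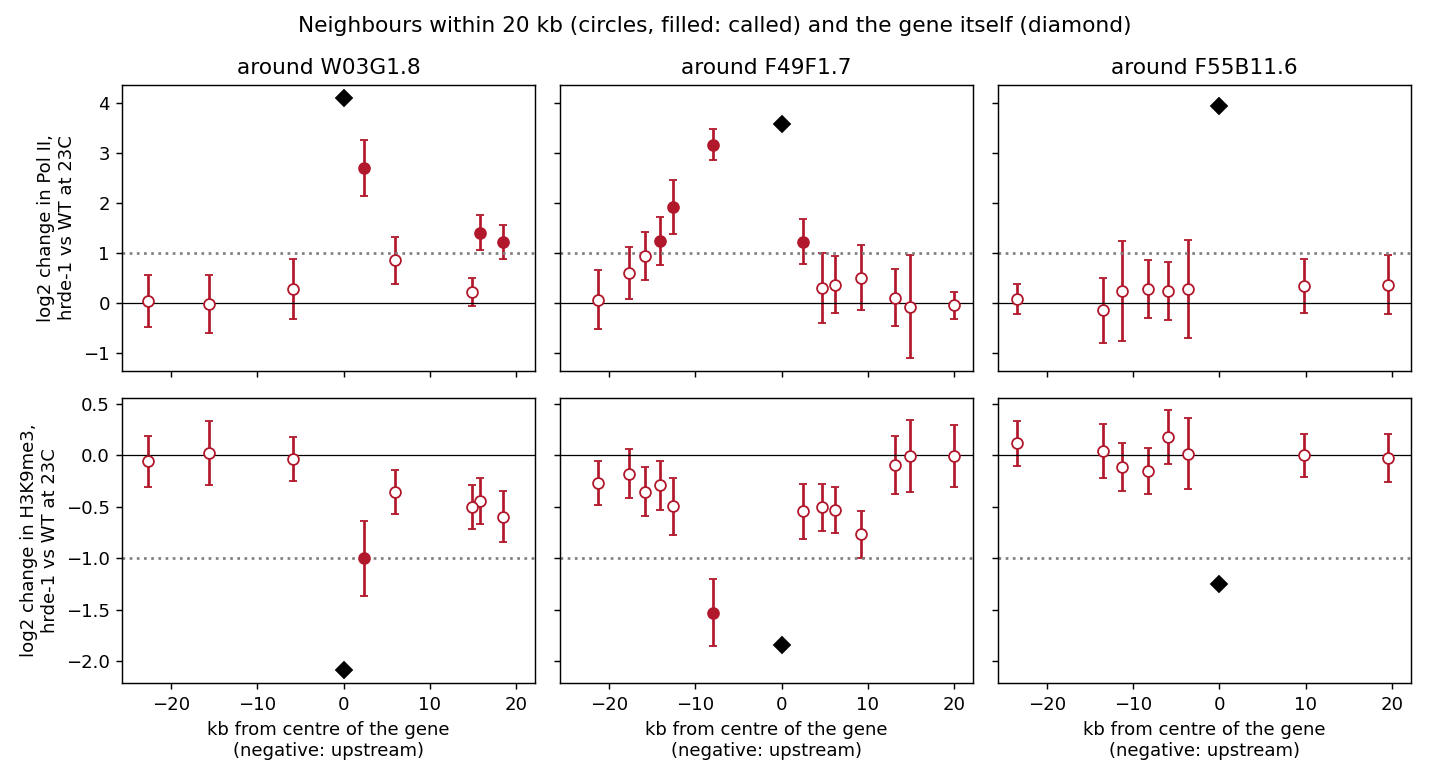
Log2 change between hrde-1 and WT at 23C (log2(RPKM + 1) scale) in Pol II (upper panels) and H3K9me3 (lower panels) of genes within 20 kb, with 95% intervals, against the distance of their centre from that of the member in kb. Filled circles were called, dotted lines mark 2-fold, and the diamond is the member itself, whose Pol II change is a description. Called neighbours surround F49F1.7 and lie on the downstream side of W03G1.8, and none lies near F55B11.6. The 2 farthest beside W03G1.8 are W03G1.3 and W03G1.4, whose levels match those of genes of the same length elsewhere. Of all genes, 0.795% were called higher in Pol II at 23C and 0.838% lower in H3K9me3.

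Genes whose Pol II level most resembled that of the members were found by Pearson r of log2(RPKM + 1) over the 12 libraries, among 1479 genes with enough spread. They lie on other chromosomes or over 10 kb away. C40A11.8 and C03A7.2 were among the 5 most alike for each of the 3 genes, at r = 0.991 to 0.995 and 0.989 to 0.996. C40A11.8 had 2.09 ± 0.71 RPKM in WT and 61.1 ± 12.2 in hrde-1, and C03A7.2 had 8.68 ± 1.09 and 60.1 ± 7.6. The members resembled each other at r = 0.984 to 0.993. These values mainly restate the split into genotypes, on which the members were chosen. Within the 6 hrde-1 libraries W03G1.8 and F49F1.7 had r = 0.756, and within the 6 WT libraries r = -0.324. F55B11.6 had r = -0.117 with W03G1.8 and 0.043 with F49F1.7 within hrde-1, and r = -0.074 and 0.243 within WT. Ranked by Spearman rho instead, 0 of the 5 most alike genes were shared with these lists for each of the 3 members. Libraries of a genotype share 1 lineage, and no p is given.

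By H3K9me3, with 1196 candidates, W03G1.8 was most like col-157, a cuticle collagen gene, and the pseudogene ZC317.1 (both r = 0.997). col-157 had 32.4 ± 5.0 RPKM in WT and 7.21 ± 1.78 in hrde-1. F49F1.7 was most like the pseudogenes F59H6.3 (r = 0.987) and F59H6.2 (r = 0.986), and F55B11.6 was most like ZC15.10 (r = 0.969) and rnh-1.3 (r = 0.96). W03G1.8 and F49F1.7 had r = 0.958 over the 6 WT generations and 0.886 over those of hrde-1. F55B11.6 had r = -0.633 with W03G1.8 and -0.524 with F49F1.7 within WT, and 0.657 and 0.8 within hrde-1, so the sign differed between genotypes. Estimated reads of col-157 were whole in 5 of 36 libraries, and those of ZC15.10 and rnh-1.3 in 36 of 36.

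Genes of the pathway itself gave a count near that of all genes. Of 18 nuclear RNAi genes, among them the nrde factors, the RNA-dependent RNA polymerases rrf-1 and ego-1 and the H3K9 methyltransferases set-25, set-32 and met-2, 0 were called in Pol II or H3K9me3 by limma between hrde-1 and WT in any phase, with 1 to 3 at an unadjusted p under 0.05 in each test. Since 0.492% to 0.825% of all genes were called higher in Pol II and 0.838% to 0.982% lower in H3K9me3, a count of 0 of 18 does not set them apart. Their median log2 change in Pol II was -0.19 at 15C, -0.11 at 23C and -0.21 at p15C, beside 0.05, 0.03 and 0.12 over all genes tested. A list of 39 genes that the study named as repressed by nuclear RNAi and induced by heat, and chose on cultures of the same experiment, is not independent evidence of direction. Of these, 5 were called higher in hrde-1 at 15C, 22 at 23C and 15 at p15C, against 0.492%, 0.795% and 0.825% of all genes. Their median log2 change was 0.66, 1.44 and 0.83. The corresponding values of W03G1.8 were 4.62, 4.10 and 4.18, those of F49F1.7 were 4.27, 3.58 and 3.53, and those of F55B11.6 were 4.19, 3.94 and 3.66, highest in each case at 15C. The 3 genes were chosen on high Pol II in hrde-1 in every phase, so their place above the list medians is no independent result. The largest change in the list was below all 3 genes at 15C and above all 3 at 23C and p15C. The difference between the list and the 3 genes was not tested.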

How the data were processed

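Reads were mapped by the authors to WS190 with Bowtie 0.12.7 (named in the submitters' processing notes), keeping perfect matches of either strand. The values the authors deposited are RPKM for each gene in each library, with input not subtracted. The table of 20911 entries was reduced to 20167 genes by keeping the first isoform entry. RefSeq names matched 19562 genes. Estimated reads came from the steps of the RPKM values with 999 bp added to the gene length (the median library then had 73.42% of its genes within 0.02 of a whole read). These read numbers show counting depth only, and the 95% intervals come from limma and the spread between generations.

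The test was limma 3.58.1 (R 4.3.3) applied to log2(RPKM + 1) of genes averaging 1 RPKM or more across a mark's 12 libraries, with a mean-variance trend and 6 groups of genotype and phase (2 genotypes for input), leaving 6 residual degrees of freedom. P-values were adjusted over all genes tested. The lone 15C library of a genotype is taken to vary as the other phases do, and p-values measure the spread between successive generations. The added 1 understates changes of low values. The fit was tested on simulated data.

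Members, lists and neighbours were chosen with earlier results of these data known. The named genes are the members, those within 10 kb, and the 5 most alike by Pearson r in each mark, of which the text gives the leading ones. Deviations of WT and hrde-1 libraries of the same generation from their group means correlated at 0.355 to 0.71 in Pol II, so the generation pairs them there, and at 0.052 to 0.207 in H3K9me3, where 1 of the generations fell under 0.1.

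Alternatives were a pseudocount of 0.5, no filter, no trend, quantile normalization, median centring, input subtraction, all entries, the generation as a block, the compared groups alone, no p15C-G1 libraries, each library left out, other neighbour distances, and Spearman rho. Input subtraction set negative values to 0. A planned motif search was not made.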

Additional observations from a re-analysis of the deposited data

How the results depend on the processing

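Members called lower in H3K9me3 stayed at 3 of 3 at 23C under every alternative but input subtraction, where 2 of 3 were called, and 2 of 3 at p15C stayed at 2 under each of them. At 15C the count of 2 became 1 with no trend, quantile normalization, input subtraction or without both p15C-G1 libraries, and ranged from 1 to 2 when each library was left out. The count of 0 for hrde-1 at 23C against 15C ranged from 0 to 1 without a library, the 1 being F49F1.7 without hrde-1 23C-G2. With input subtracted only 3 of the 13 neighbours passed the filter in Pol II, mul-1 not among them. The count went from 3 to 1 at 15C, 2 at 23C and 1 at p15C, beside 33, 92 and 70 of all 7743 genes tested under that setting. W03G1.2 was then 0 in every WT library. Within 20 kb the main fit called 5, 7 and 5 of 29 at 15C, 23C and p15C, W03G1.3 and W03G1.4 included, against 0.492%, 0.795% and 0.825% of all genes. Within 10 kb the count fell without both p15C-G1 libraries at 15C and p15C. Counts under the remaining settings are given without the share of all genes. Leaving out a library gave 1 to 3 at 15C and at p15C. Neighbours called in H3K9me3 at 15C went from 1 to 0 with quantile normalization or input subtraction, and ranged from 1 to 2 without a library at 23C and at p15C. With input subtracted the H3K9me3 count at 23C stayed at 2, with F49F1.3 called in place of W03G1.2. The replicate block by generation changed no count by over 1.5 times. In single genes the block changed 1 call, Pol II of F55B11.2 at 15C, and no other. Over all genes it also called more higher in Pol II at 15C than the main fit did. The genes most alike by Spearman rho shared 0 of 5 with the Pearson list for each member in Pol II, and 1, 1 and 3 of 5 in H3K9me3 for W03G1.8, F49F1.7 and F55B11.6. At 15C, leaving out the only library of a genotype gave no value. Input depth of 0.221 to 1.31 M reads limits every value that uses input, and WT Pol II over F55B11.6 rests on 9 to 14 reads.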

Other observations

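Between 10 and 20 kb from the members lie a further set of genes, 29 in all within 20 kb. Pol II was called higher in hrde-1 for W03G1.3 (1.41 ± 0.16 on the log2 scale at 23C, limma adjusted p = 0.000162) and W03G1.4 (1.22 ± 0.16, adjusted p = 0.000471), which lie inside the span of pig-1, so ChIP reads of the 3 genes overlap. Estimated reads of W03G1.3 were whole in 8 of 36 libraries and those of W03G1.4 in 5. Elsewhere in the genome, 1 gene (Y55F3C.11) had the length of W03G1.3, 1769 bp, and mean values within 10% of it in both marks and genotypes, and 5 genes, among them Y55F3C.6 and K02B7.1, did so for W03G1.4 at 2892 bp. The signal of W03G1.3 and W03G1.4 therefore cannot be assigned to the neighbourhood of W03G1.8. pig-1 itself was at 0.22 ± 0.13 (adjusted p = 1). Upstream of F49F1.7, F49F1.9 (1.93 ± 0.25, adjusted p = 0.000534) and F49F1.10 (1.24 ± 0.22, adjusted p = 0.0105) were called at 23C. Of the 8 genes within 20 kb of F55B11.6, 0 were called by limma in Pol II or H3K9me3 in any phase, with 1 in each mark at an unadjusted p under 0.05 at 15C and 0 at 23C and p15C. Of all genes, 0.492% to 0.825% were called higher in Pol II and 0.838% to 0.982% lower in H3K9me3. A count of 0 of 8 therefore does not set these genes apart.

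F55B11.6 lies in a stretch of chromosome IV that is dense in piRNA genes. Of the 100 RefSeq entries nearest to it, 94 are piRNAs, against 1 for W03G1.8, 2 for F49F1.7 and 74.7% of the 19704 entries of the chromosome. The values are a count of annotation only.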
